A study of Mus musculus with 24 samples.

Results

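The NMU effect shared by 3 lymphocyte populations of the inflamed colon was measured as 1 value per gene, the log2 difference between NMU-treated and PBS-treated mice averaged with equal weight over the populations. All 24 of the 24 libraries of the series entered it, 12 from NMU mice and 12 from PBS mice. The animals were Nmur1 iCre-eGFP reporter mice, which carry eGFP and Cre recombinase under the control of Nmur1. Both treatments shared the same colitis: each mouse drank 3% dextran sulfate sodium (DSS), which damages the gut lining, over 5 days, followed by 3 days on water. Mice 1 to 4 were injected with the neuropeptide neuromedin U (NMU) and mice 5 to 8 with phosphate-buffered saline (PBS), every other day. From the colonic lamina propria of each mouse came a library of eGFP-positive group 2 innate lymphoid cells (ILC2), of eGFP-positive CD4 T cells (NMUR1+) and of eGFP-negative CD4 T cells (NMUR1-). The sample labels name 4 mice per treatment, while the design text counts 3. The labels' mouse numbers were used, and the mouse, not the library, was the unit of replication (4 against 4). Strain background, sex and age of the mice: not given in the sources used here.

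NMU is released by enteric neurons and binds the receptor NMUR1, which in the intestine is best known from ILC2, where it raises cytokine output. CD4 T cells recognise antigen through a clonal receptor, which ILC2 lack, and both react to cytokines of the tissue around them. NMUR1- T cells were sorted for lacking the reporter, so the question put to the averaged effect is whether NMU-treated mice differed in something that all 3 populations share, whether or not the sorted cell carries the receptor. The library code numbers of NMU mice and of PBS mice form separate ranges. The labels do not say what the codes mean, and any batch behind them cannot be told apart from the treatment.

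Total counts ran from 8485266 to 17854961 per library with a median of 12468364, and 13509 genes had enough counts to be tested. Total counts overlapped between treatments in each population. Fewer genes were detected with NMU in NMUR1- libraries (14998 to 15271, against 15418 to 15955 with PBS), without overlap. ILC2 libraries had 10778 to 12637 with NMU, against 12635 to 13736 with PBS. NMUR1+ libraries overlapped widely (13542 to 14881 with NMU, against 13154 to 15664 with PBS). The part of this in genes lower or without counts with NMU was not tested. The T cell markers followed the sort, and the type 2 markers did so in part. The T cell genes Cd3e, Cd3d, Cd5 and Trac had at most 12.2 CPM (read counts scaled by library size) in any ILC2 library and at least 328 CPM in any CD4 T cell library. Gata3, the type 2 lineage factor, had at least 4270 CPM in ILC2 libraries and at most 1970 CPM in any T cell library. Rora and Il5 had at least 1680 and 751 CPM in ILC2 libraries and at most 906 and 79.8 CPM in T cell libraries. Il1rl1 overlapped between ILC2 (245 to 494 CPM) and NMUR1+ libraries (162 to 423 CPM). So did Klrg1 (690 to 1700 and 438 to 1200 CPM). The median level of Nmur1, whose promoter drives the reporter, was 230 CPM in the ILC2 libraries, with 42.0 CPM for NMUR1+ and 3.50 CPM for NMUR1- libraries. For this gene the T cell populations overlapped, since the lowest NMUR1+ library had 6.14 CPM and the highest NMUR1- library 7.84 CPM. Immunoglobulin genes took 0.785 to 30.4% of counts with NMU, against 2.29 to 26.7% with PBS, in NMUR1+ cells, and at most 0.869% with NMU, against 0.666 to 7.94% with PBS, in ILC2.

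No gene passed the test of the averaged effect. With limma on the 8 mouse averages, 0 of 13509 genes (0%) had an adjusted p under 0.05 in either direction. The smallest limma adjusted p was 0.0715, shared by Ctla4, higher, and Snx9, lower. At an unadjusted limma p under 0.05 there were 1625 genes (12%), 659 higher (4.88%) and 966 lower (7.15%) with NMU. The 4 NMU mouse averages lay above all 4 PBS averages for 369 genes (2.73%) and below them for 458 genes (3.39%). The count of calls depended on the model. An edgeR fit that took the 24 libraries as independent called 83 genes higher (0.614%) and 111 lower (0.822%), DESeq2 on counts summed per mouse called 64 and 174, limma voom with the mouse as a replicate block called 27 and 24, and edgeR on counts summed per mouse called 0 and 0.

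ILC2 contributed the largest differences to the averaged effect. Over all genes tested the median absolute log2 difference was 0.44 in ILC2, 0.225 in NMUR1+ and 0.181 in NMUR1- cells. Sets chosen by the p of an average that includes ILC2 can favor the population with the widest differences. ILC2 showed the largest of the 3 differences in 60.5% of all genes tested, in 81.9% of the 1625 genes with an unadjusted limma p under 0.05, and in 179 of the 194 genes that edgeR called on 24 libraries. Without ILC2, the average of both CD4 T cell populations again had 0 calls, and 634 genes (4.89%) had an unadjusted limma p under 0.05. No gene separated the 4 NMU from the 4 PBS libraries in each of the 3 populations, in either direction (0%). In 2 or more populations, 33 genes did so upward (0.244%) and 35 downward (0.259%). In both CD4 T cell populations, 7 genes did so in each direction (0.0518%), among them Mfap5, Fxr2 and Ptpn23 downward and Nfatc3, ND4 and Fundc1 upward, chosen after their values were seen. A direct test of whether the NMU effect differed between the populations (edgeR, 2 treatment-by-population terms) called 46 genes (0.341%), and ILC2 had the largest difference in all 46. With the mouse as a block this test called 30 genes.

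The 6 genes leading the averaged effect upward were Ctla4, Cd52, H2-T22, Tnfrsf4, Glrx and Stx11, and each had its largest difference in ILC2. Ctla4, an inhibitory receptor of T cells that competes with CD28 (gene 12477, GRCm38 chromosome 1, 60909025 to 60915832), had mouse averages (geometric means over the 3 libraries) of 709, 658, 829 and 718 CPM with NMU, against 391.9, 481, 431 and 365 CPM with PBS. The 2 groups of mice did not overlap, and the averaged log2 difference was 0.81 (SE 0.10, limma adjusted p = 0.0715). Within the populations the difference was 2.26 in ILC2, 0.06 in NMUR1+ and 0.11 in NMUR1- cells, and it differed between populations (edgeR adjusted p = 0.00275). In ILC2 the libraries had 98.4, 80.0, 247 and 110 CPM of Ctla4 with NMU, against 20.3, 27.4, 34.2 and 21.1 CPM with PBS. Both T cell populations carried 1320 to 2620 CPM of it across treatments, and without ILC2 the averaged difference was 0.08.

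Tnfrsf4, the costimulatory receptor OX40, followed the same form, with an averaged log2 difference of 0.89 (SE 0.16, limma adjusted p = 0.189) made of 2.33 in ILC2, 0.07 in NMUR1+ and 0.26 in NMUR1- cells. Stx11, a syntaxin of granule release, had 1.68, 0.02 and 0.02 in the same order. Irf4, a transcription factor of activated lymphocytes, had 2.06, -0.12 and -0.00, and Snx9, a membrane-remodelling sorting nexin, had -5.33, -0.16 and 0.15. Snx9 had 0 counts in all 4 ILC2 libraries of NMU mice, so its fitted values depend on the prior count and give no fold. Pid1 and Pfkfb4, named for the difference between populations together with Snx9, Irf4 and Stx11, had -5.13 and -5.67 in ILC2 and between -0.54 and 0.38 in the T cells (edgeR adjusted p of the difference 0.000525 for each). In the ILC2 libraries of NMU mice Pid1 had 0 counts in all 4 and Pfkfb4 had 1 count in all, so these ILC2 values depend on the prior count too.

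Among the genes leading upward, Cd52, H2-T22 and Glrx had differences of 0.17 to 0.28 in the T cells (SE 0.09 to 0.26). Their positive sign there was a condition for being named. Without ILC2 the unadjusted limma p was 0.219 for Cd52, 0.0528 for H2-T22 and 0.111 for Glrx. Cd52, a small surface glycoprotein of lymphocytes, had mouse averages of 648, 758, 763 and 574 CPM with NMU, against 399, 453, 387 and 416 CPM with PBS (log2 0.72, SE 0.10, limma adjusted p = 0.0937). Its differences were 1.76, 0.24 and 0.17 in ILC2, NMUR1+ and NMUR1- cells. H2-T22, a nonclassical class I gene that belongs to a family of near-identical copies, so that its reads may be split among them, had 213, 243, 206 and 210 CPM with NMU, against 161, 151, 152 and 157.7 CPM with PBS (log2 0.49, SE 0.08, limma adjusted p = 0.183). It had 0.99, 0.22 and 0.25 by population. Glrx, a thiol reductase, had 386, 508, 432 and 411 CPM with NMU, against 287, 311, 265 and 322 CPM with PBS, with 1.15, 0.22 and 0.28 by population (averaged log2 0.55, SE 0.10, limma adjusted p = 0.189). In all 3 genes the mice separated by treatment, and in all 3 the ILC2 difference was the largest. The difference between populations passed for Cd52 (edgeR adjusted p = 0.00348) and not for H2-T22 (0.121) or Glrx (0.225), which does not show that their populations were alike.

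**Figure D1:**
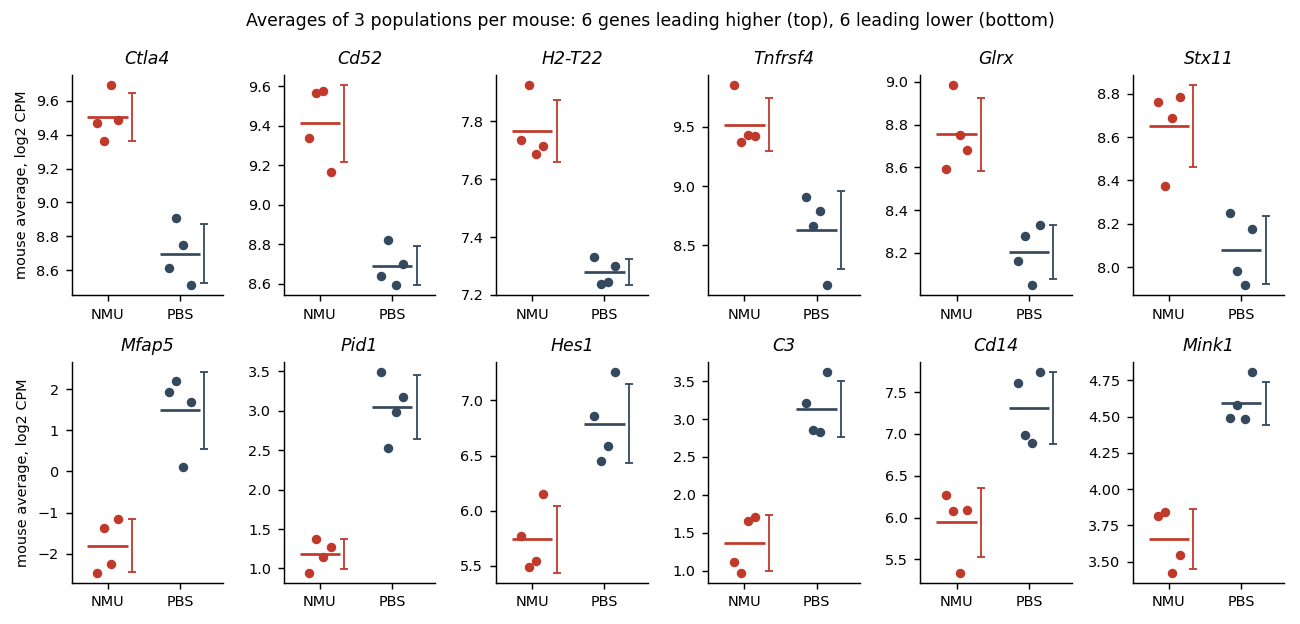
Mouse averages over the 3 populations (log2 CPM) for the 6 genes leading upward and the 6 leading downward, 4 NMU mice (red, left) and 4 PBS mice (dark, right) in each panel. Points are mice, lines are means and bars are SD; the axes do not start at 0. In each panel the 2 groups of mice do not overlap, which was a condition for being shown.

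The genes leading downward included several whose difference was found in each population, where the same sign in each was again a condition for being named. Hes1, a transcriptional repressor induced by Notch (gene 15205, GRCm38 chromosome 16, 30065357 to 30067796), had mouse averages of 54.5, 45.1, 46.5 and 71.2 CPM with NMU, against 116, 87.6, 96.0 and 153 CPM with PBS (log2 -1.05, SE 0.19, limma adjusted p = 0.189). The differences were -1.31 in ILC2, -0.62 in NMUR1+ and -1.22 in NMUR1- cells, although the level of the gene averaged 1317 CPM in ILC2, against 46.4 CPM in the NMUR1+ and 10.1 CPM in the NMUR1- libraries. In ILC2 it had 533, 1150, 604 and 833 CPM with NMU, against 1790, 1910, 1720 and 2000 CPM with PBS. In NMUR1+ cells it had 39.4, 23.4, 35.7 and 47.0 CPM with NMU, against 58.1, 43.0, 42.5 and 81.9 CPM with PBS. In NMUR1- cells it had 7.51, 3.22, 4.50 and 9.04 CPM with NMU, against 15, 8.00, 11.9 and 21.8 CPM with PBS. The groups separated in ILC2 and overlapped through mouse 4 in both T cell populations. The difference between populations did not pass (edgeR adjusted p = 0.942), which does not show equal effects. EdgeR on 24 libraries called Hes1 lower (adjusted p = 0.00802), and the voom fit with the mouse as a block did not (0.0779).

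Mink1, a kinase of the JNK pathway (gene 50932, GRCm38 chromosome 11, 70561580 to 70614482), had mouse averages of 14.1, 14.4, 10.7 and 11.7 CPM with NMU, against 22.5, 23.9, 22.4 and 28 CPM with PBS (log2 -0.93, SE 0.18, limma adjusted p = 0.190). Its differences were -1.31, -0.63 and -0.86 in ILC2, NMUR1+ and NMUR1- cells, at a similar level of 17.9 to 20.5 CPM in each. C3, the central complement component, had mouse averages of 2.17, 1.96, 3.14 and 3.25 CPM with NMU, against 9.29, 7.24, 7.11 and 12.3 CPM with PBS (log2 -1.77, SE 0.33, limma adjusted p = 0.190). In ILC2 it had 1 count over the 4 NMU libraries and 12 to 73 counts in each PBS library, and its differences of -0.47 in NMUR1+ and -1.12 in NMUR1- cells were smaller (edgeR adjusted p of the difference = 0.0177). Fibroblasts and macrophages also make C3; the markers of both lay lower with NMU in ILC2 (median log2 -3.06 and -1.83), and their part in these values was not tested. Cd14, a lipopolysaccharide coreceptor of myeloid cells, had -3.96 in ILC2 but -0.07 and -0.05 in the T cells.

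Mfap5, a microfibril component made by fibroblasts (gene 50530, GRCm38 chromosome 6, 122513584 to 122529290), had the largest fitted difference among the genes leading downward. In NMUR1+ cells it had 0, 0.146, 0 and 0.368 CPM with NMU, against 1.99, 18.9, 4.41 and 4.25 CPM with PBS. In NMUR1- cells it had 0.0799, 1.04, 0.218 and 0.931 CPM with NMU, against 8.82, 4.77, 1.59 and 1.48 CPM with PBS. The libraries of both T cell populations separated by treatment. In ILC2 it had 0 counts in all 4 NMU libraries, which allows up to 0.215 to 0.338 CPM in a library (3 counts), and 33, 11, 0 and 57 counts in the PBS libraries. The fitted log2 of -3.29 (SE 0.54, limma adjusted p = 0.183) depends on the prior count at these levels. EdgeR on 24 libraries (adjusted p = 0.00423) and the voom fit with the mouse as a block (0.0140) called Mfap5 lower.

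**Figure D2:**
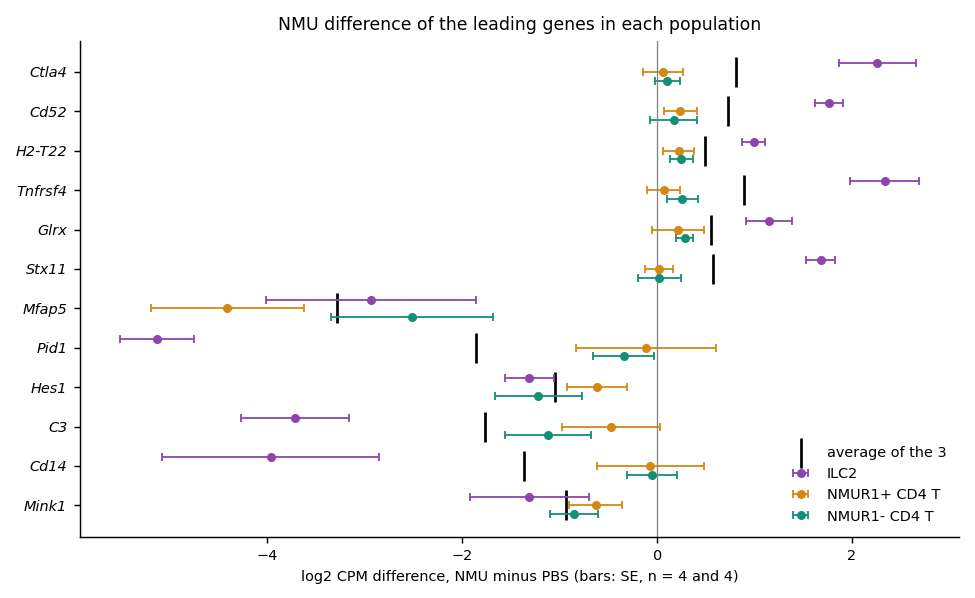
NMU minus PBS difference in log2 CPM (bars: SE, n = 4 and 4) of the 12 leading genes in ILC2, NMUR1+ and NMUR1- CD4 T cells, with the average as a black tick. The same sign in each population was a condition for being shown. Ctla4, Tnfrsf4, Stx11, Pid1 and Cd14 have their difference mainly in ILC2, while Hes1, Mink1 and Mfap5 lie at -0.62 or below in each population.

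To look for genes that moved alike in the cells, genes were listed that had a log2 difference of at least 0.5 with the same sign in each population, mouse averages that did not overlap and a mean of at least 5 CPM in each population. This rule was chosen after values were seen, and its members carry no test. It was met by 21 of 8592 genes, of which 20 were lower with NMU and 1 was higher. The gene that was higher was Mlf1, a myeloid leukemia fusion partner, with 30.3, 20.7, 21.2 and 28 CPM with NMU, against 16.3, 17.7, 13.5 and 7.53 CPM with PBS. Besides Hes1 and Mink1, those lower were Serping1, Rnf40, Socs3, Usp19, Serpina3n, Fxr2, Igsf8, Arsa, Leng8, Fam53c, Sphk2, Hdac5, Agpat1, Smg5, Fasn, Map3k11, Relt and the antibody segment Ighv1-81. EdgeR on 24 libraries called 3 of the 21 and the voom block fit 2, against 194 and 51 of the 13509 genes tested. The rule had already taken genes by their differences in these data, so these calls are no independent support.

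Of the 20, Socs3, Serpina3n, Serping1 and Rnf40 are given in full, chosen after their values were seen. Socs3, the feedback inhibitor of IL-6 and STAT3 signaling, had mouse averages of 12.4, 21.2, 20.1 and 36.5 CPM with NMU, against 46.1, 39.1, 50.9 and 50.2 CPM with PBS (log2 -1.14, SE 0.27, limma adjusted p = 0.242; -1.82, -0.79 and -0.82 by population). Serpina3n, an acute-phase serine protease inhibitor, had 0.934, 4.24, 5.68 and 2.30 CPM with NMU, against 9.44, 9.10, 9.25 and 28.1 CPM with PBS. Serping1, the inhibitor of the first complement component had 4.87, 3.07, 2.73 and 14.6 CPM with NMU, against 24.3, 33.7, 15.1 and 31.2 CPM with PBS. The lowest PBS mouse, mouse 7, was close to the highest NMU mouse, mouse 4. Serping1 and Mfap5 belong to the fibroblast markers, whose median log2 was -1.94, and the part of fibroblast RNA in their values was not tested. Rnf40, a ubiquitin ligase of histone H2B, had 20.9, 31.4, 43.0 and 46.0 CPM with NMU, against 64.9, 60.0, 74.8 and 85.6 CPM with PBS. EdgeR on 24 libraries (adjusted p = 0.0247) and the voom block fit (0.0186) called Rnf40 lower, after it was selected for its differences in these data.

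STAT3 binds sites of the form TTCNNNGAA (N is any base; the same on both strands). The promoter of Socs3 is shown because it is the STAT3 feedback gene among the members. It is the RefSeq window of 250 bases before and 50 after a listed start, GRCm38.p6, chr11:117969317-117969616, minus strand, 5′ to 3′, with the match in capitals.
Socs3: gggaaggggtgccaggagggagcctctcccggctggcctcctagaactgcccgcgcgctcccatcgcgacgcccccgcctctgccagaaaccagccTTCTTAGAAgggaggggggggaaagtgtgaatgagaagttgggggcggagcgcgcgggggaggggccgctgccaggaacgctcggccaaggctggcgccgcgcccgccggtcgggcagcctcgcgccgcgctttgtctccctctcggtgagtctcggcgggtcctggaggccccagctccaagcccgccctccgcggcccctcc
A match was held by 3 of the 17 members with a window (17.6%; Socs3, Arsa and Agpat1), by 6.97% of the tested genes with a window and by 8.47% of all windows. These counts describe letters and no binding.

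Gene lists were described by the signs and medians of their tested members, beside a median of -0.04 and 45.2% of genes above 0 over all genes tested. No member of any list passed limma. Subunits of oxidative phosphorylation, the nuclear-encoded part of the mitochondrial respiratory chain and ATP synthase, were above 0 in 74 of 77 genes, and 55 were above 0 in each population, where 16.5% of all genes were above 0 in each and 19.7% below 0 in each. Their median log2 was 0.19 on average, 0.28 in ILC2, 0.08 in NMUR1+ and 0.17 in NMUR1- cells. An unadjusted limma p under 0.05 was found for 30 higher and 0 lower, against 4.88% and 7.15% of all genes tested. Uqcrq, a complex III subunit, had 111, 108, 122.7 and 98.9 CPM with NMU, against 88.5, 87.8, 87.7 and 85.7 CPM with PBS (log2 0.33, SE 0.09, limma adjusted p = 0.258). Sdhb, the iron-sulfur subunit of complex II, had 352, 366, 413 and 314 CPM with NMU, against 294, 299, 283 and 269 CPM with PBS. Cox6b1, a complex IV subunit, had 162, 165, 167 and 136 CPM with NMU, against 134, 141, 131 and 130 CPM with PBS. In each of these genes mouse 4 was the lowest of the NMU mice, and in Cox6b1 it overlapped the PBS mice. Summed over the list, ILC2 libraries had 9128 to 11244 CPM with NMU, against 7308 to 9079 CPM with PBS, and did not overlap. NMUR1+ libraries had 9323 to 11687 CPM with NMU, against 9757 to 10387 CPM with PBS, and NMUR1- libraries 9745 to 13623 CPM with NMU, against 9487 to 11596 CPM with PBS. Both T cell populations overlapped.

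The mitochondrially encoded transcripts, which are made by a separate polymerase inside the organelle, were above 0 in 8 of 8 genes, with medians of 0.26, 0.23 and 0.18 in ILC2, NMUR1+ and NMUR1- cells. CYTB, the cytochrome b of complex III, had 3120, 3080, 3380 and 2490 CPM with NMU, against 2490, 2530, 2550 and 2280 CPM with PBS (log2 0.29, SE 0.09, limma adjusted p = 0.302). Mouse 4 lay within the PBS mice. Cytosolic ribosomal proteins were above 0 in 70 of 81 genes with a smaller median of 0.08, and Rpl3 had the smallest p among them (log2 0.23, SE 0.09, limma adjusted p = 0.338).

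The promoters of Sdhb and Cox6b1 are shown for the ETS-type element CCGGAAG, a common element of respiratory gene promoters (capitals, read on either strand; RefSeq windows as above, GRCm38.p6). Both genes lie outside the naming rule, and a promoter is shown only where it held a match. Sdhb lies at chr4:140961021-140961320, plus strand, and Cox6b1 at chr7:30626065-30626364, minus strand.
Sdhb: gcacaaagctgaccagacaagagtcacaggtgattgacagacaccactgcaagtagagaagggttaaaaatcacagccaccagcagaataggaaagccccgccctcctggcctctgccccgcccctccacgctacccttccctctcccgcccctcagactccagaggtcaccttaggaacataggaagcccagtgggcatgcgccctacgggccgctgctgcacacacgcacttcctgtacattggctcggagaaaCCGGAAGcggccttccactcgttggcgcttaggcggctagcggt
Cox6b1: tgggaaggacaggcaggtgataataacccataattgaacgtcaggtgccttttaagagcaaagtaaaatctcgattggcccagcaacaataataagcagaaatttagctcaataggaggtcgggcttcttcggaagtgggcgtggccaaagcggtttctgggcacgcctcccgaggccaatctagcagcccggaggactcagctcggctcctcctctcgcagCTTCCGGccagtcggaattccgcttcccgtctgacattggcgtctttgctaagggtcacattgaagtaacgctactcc
The element was held by 15 of the 63 windows of the list (23.8%), by 18.4% of windows of tested genes and by 9.12% of all windows, so the list lay near the tested genes.

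Fibroblast markers were below 0 in 19 of 19 genes and in each population in 17 of them, with a median of -1.94 on average and of -3.06, -1.04 and -1.42 in ILC2, NMUR1+ and NMUR1- cells. An unadjusted limma p under 0.05 was found for 13 lower and 0 higher, against 7.15% and 4.88% of all genes tested. EdgeR on 24 libraries called 4 lower, against 0.822% of all genes tested. Fibroblast markers are made mainly by stromal cells. Their sum was 5.86 to 52.2 CPM with NMU and 22.98 to 567 CPM with PBS in ILC2, 64.4 to 268 CPM with NMU and 197 to 659 CPM with PBS in NMUR1+ cells, and 22.7 to 133 CPM with NMU and 114 to 311 CPM with PBS in NMUR1- cells. The ranges overlapped in each population. In sorted bulk samples, fewer fibroblasts carried along and less RNA per fibroblast cannot be told apart. With the mouse average of Col3a1 as a covariate, 0 genes passed and the share with an unadjusted limma p under 0.05 was 6.22% in place of 12%. With Jchain, a plasma cell gene, as the covariate that share was 8.92%, and with 1 mouse left out it ran from 8.61 to 15.9%. Col3a1 itself had a log2 of -2.43, so the covariate also takes up part of the treatment difference.

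**Figure D3:**
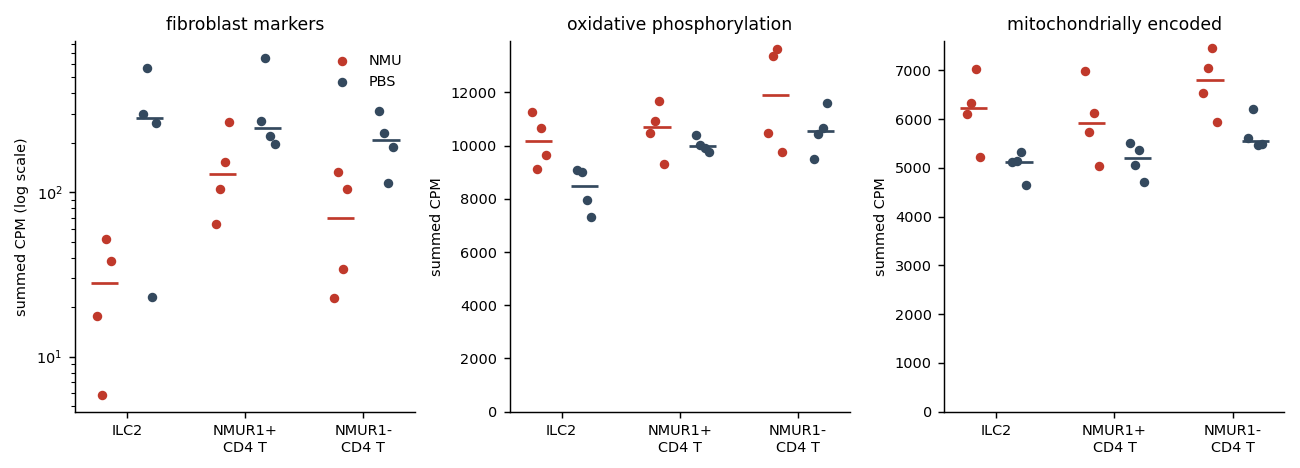
Summed CPM of the fibroblast markers (log axis), the oxidative phosphorylation genes and the mitochondrially encoded genes in each library, with NMU (red) left of PBS (dark) in each population and lines at medians. The fibroblast medians with NMU lie below those with PBS in each population, and the ranges overlap.

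Markers of further cell types differed in direction between lists and populations. Macrophage and dendritic cell markers were below 0 in 16 of 18 genes, with medians of -1.83, -0.05 and -0.01 in ILC2, NMUR1+ and NMUR1- cells. B and plasma cell markers had medians of -3.18, -0.14 and 0.40. Neutrophil markers had medians of -2.49, -0.30 and 0.35, which rested on 1 library: their sum in ILC2 was 46.3, 49.0, 93.1 and 31.3 CPM with NMU, against 29.0, 11.0, 8.68 and 406 CPM with PBS, and without mouse 8 the averaged median was 0.05 (3 of 6 above 0), in place of -0.71. Of these ILC2 sums, the member Il1r2 alone had 46.3, 44.5, 92.9 and 31.3 CPM with NMU. With PBS it had 17.0, 8.95, 8.40 and 39.3 CPM. The higher sums with NMU are therefore mostly those of Il1r2. Erythroid markers had -2.54, -0.45 and -0.37, over 3 genes. Epithelial markers had -0.92, -0.89 and -0.07, although their sum in ILC2 had a median of 62.5 CPM with NMU, against 34.2 CPM with PBS, and among them the goblet cell gene Agr2 had 1.04, 0.405, 0.580 and 1.13 CPM with NMU, against 6.23, 19.5, 5.06 and 1.35 CPM with PBS (limma adjusted p = 0.253). Muscle and endothelial markers had -0.93, 0.34 and -1.37, with the smooth muscle myosin gene Myh11 at a limma adjusted p of 0.333. NK cell markers had 0.00, 0.28 and 0.46, and the granzyme gene Gzma varied from 38.9 to 392.1 CPM with NMU and from 6.51 to 116 CPM with PBS. The smallest p of the neutrophil list was that of Il1r2, a decoy receptor of interleukin 1, at a log2 of 0.73 (limma adjusted p = 0.314). Il1r2 averaged 534 CPM over NMUR1+ and 353 CPM over NMUR1- libraries, against 36.1 CPM in ILC2, so it did not mark neutrophils here. The smallest p of the erythroid list was that of Hba-a2, a near-identical copy of Hba-a1, at -1.22 (limma adjusted p = 0.542). Of the sex-linked genes, Xist alone had enough counts to be tested (log2 0.13, SE 0.11, limma adjusted p = 0.677). How far these transcripts enter the averaged effect was not tested beyond the covariates.

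Lists of systemic signals had modest averaged medians. Clock and glucocorticoid genes were listed because both signals act across tissues. Of 24 circadian clock and clock output genes, 17 were below 0, with medians of -0.47, -0.12 and -0.17 in ILC2, NMUR1+ and NMUR1- cells. Their summed level ran the other way in ILC2, at 6016 to 6804 CPM with NMU, against 5704 to 5947 CPM with PBS, and overlapped in the T cells. A large part of the ILC2 sum came from Bhlhe40 and Rora, with medians of 2910 and 2130 CPM with NMU, against 2090 and 2020 CPM with PBS. Nr1d2, the nuclear receptor REV-ERB beta of the clock's repressive arm, had 118, 84.2, 94.2 and 124.7 CPM with NMU, against 166, 137, 128 and 142 CPM with PBS (log2 -0.46, SE 0.14, limma adjusted p = 0.280; -0.98, -0.11 and -0.29 by population). Of further clock genes, chosen after their values were seen, Usp2, a clock-controlled deubiquitinase, had -1.66, -0.48 and -0.30, and Bhlhe40, a repressor of the clock, had 0.45, 0.30 and -0.01. Of the core loop, Arntl had ranges of 110 to 147 CPM with NMU and 78.9 to 183 CPM with PBS in ILC2, and overlapped in each population. Dbp, a strongly rhythmic output gene, was at a median of 2.46, 6.02 and 3.49 CPM with NMU, against 2.85, 6.11 and 3.87 CPM with PBS, in ILC2, NMUR1+ and NMUR1- cells.

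Glucocorticoid-induced genes had a median of -0.15 over 15 genes (-0.34, -0.02 and -0.07 by population), 12 of them below 0. Zbtb16, the factor PLZF, had the smallest p of this list (0.182, 0.535, 0.158 and 0.628 CPM with NMU, against 1.88, 2.47, 2.33 and 1.92 CPM with PBS, limma adjusted p = 0.190), at under 1 CPM on average in both T cell populations. In ILC2 it had 0, 1.69, 0 and 0.286 CPM with NMU, against 17.6, 9.82, 7.85 and 15.1 CPM with PBS, and the libraries did not overlap. Interferon response genes had a median of 0.02 with 19 of 36 above 0, and Stat2, a signal transducer of interferon receptors, had a limma adjusted p of 0.381. Heat shock genes had -0.12 on average (-0.38 in ILC2, 0.02 in NMUR1+ and 0.03 in NMUR1- cells), with Ahsa1, a cochaperone of HSP90, higher at 0.27 (limma adjusted p = 0.286). Their sum in ILC2 was 5609 to 7065 CPM with NMU, against 7103 to 9761 CPM with PBS, and overlapped in both T cell populations. NF-kappaB targets had -0.07, with the chemokine gene Ccl3 at -5.31 in ILC2, -0.90 in NMUR1+ and -0.41 in NMUR1- cells (limma adjusted p = 0.192). In ILC2 Ccl3 had 0, 0, 2.21 and 0.858 CPM with NMU, against 39.1, 68.9, 10.4 and 5.09 CPM with PBS, so its ILC2 value depends on the prior count. Immediate early and activation genes were below 0 in 22 of 28 genes (median -0.25; -0.40, -0.12 and -0.23 by population), and 16 were below 0 in each population. Myc, a growth-promoting transcription factor of this list, had 122, 120, 149 and 115 CPM with NMU, against 145.5, 145, 243 and 217 CPM with PBS (log2 -0.54, SE 0.17, limma adjusted p = 0.289).

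Of the stress pathways, integrated stress response genes were below 0 in 12 of 17 (median -0.30). By population their medians were -0.35 in ILC2, -0.11 in NMUR1+ and -0.06 in NMUR1- cells. Their sum in ILC2 was 3160 to 4143 CPM with NMU, against 4452 to 4820 CPM with PBS, and overlapped in both T cell populations. Sesn2, a stress-induced inhibitor of mTORC1 that is in this list and among the p53 targets, had 21.9, 18.5, 20.1 and 27.4 CPM with NMU, against 30.5, 35.4, 35.2 and 32.2 CPM with PBS (log2 -0.61, SE 0.15, limma adjusted p = 0.258), with -0.61, -0.38 and -0.84 by population. The mice did not overlap. p53 targets had a median of -0.11 over 11 genes (-0.33, -0.02 and -0.00 by population). Unfolded protein response genes (median 0.02, Hyou1 with the smallest p, limma adjusted p = 0.381), sterol synthesis genes (-0.14, Mvk, 0.342), hypoxia and glycolysis genes (0.04, Pfkfb4, 0.189) and oxidative stress genes under NRF2 (-0.02, Txn1, 0.262) had averaged medians within 0.15 of 0. By population the sterol medians were -0.43 in ILC2, 0.10 in NMUR1+ and 0.08 in NMUR1- cells, with 2 of 21 genes above 0 in ILC2. In the same order the unfolded protein response had -0.20, 0.06 and 0.10, hypoxia and glycolysis 0.06, 0.00 and 0.03, and NRF2 -0.10, 0.06 and 0.02. Proliferation genes were above 0 in 28 of 33 genes, with medians of 0.99 in ILC2, 0.02 in NMUR1+ and 0.07 in NMUR1- cells. Their averaged median of 0.37 was 0.18 without mouse 5 and 0.61 without mouse 1. The replication helicase gene Mcm6 had 255, 376, 343 and 344 CPM with NMU, against 235, 232, 260 and 237 CPM with PBS (log2 0.44, SE 0.11, limma adjusted p = 0.258).

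**Figure D4:**
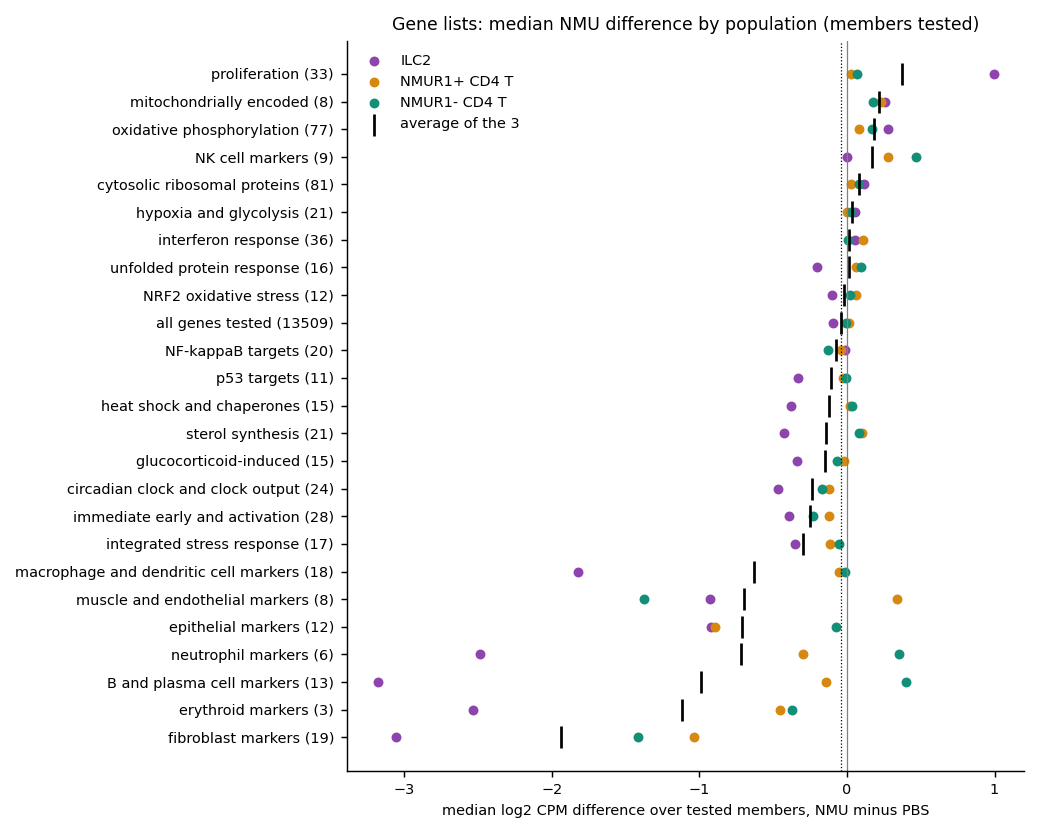
Median NMU minus PBS difference (log2 CPM) over the tested members of each list, by population, with the averaged effect as a black tick and the dotted line at the median of all genes tested (-0.04). Oxidative phosphorylation and mitochondrially encoded genes lie to the right of 0 and fibroblast markers to the left in each population, while B cell, macrophage and proliferation medians stand apart in ILC2, as does the neutrophil median, which rests on PBS mouse 8.

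The receptor gene and the effector cytokines of ILC2 had no averaged effect past the test. Nmur1 had mouse averages of 19.9, 26.5, 32.5 and 46.5 CPM with NMU, against 31.8, 35.8, 38.5 and 23 CPM with PBS (log2 -0.08, SE 0.25, limma adjusted p = 0.923). Areg, the epithelial growth factor amphiregulin, had 194, 88.4, 106 and 225 CPM with NMU, against 139, 89.2, 93.4 and 85.4 CPM with PBS (log2 0.51, SE 0.31, limma adjusted p = 0.541), with 1.12, 0.34 and 0.07 in ILC2, NMUR1+ and NMUR1- cells. Il5, the eosinophil growth factor, had a log2 of 0.43 (SE 0.35, limma adjusted p = 0.648), Il13 of -0.03 (SE 0.65, limma adjusted p = 0.991) and the anti-inflammatory cytokine Il10 of 1.53 (SE 0.55, limma adjusted p = 0.357). By population Il5 had 0.71 in ILC2, 0.81 in NMUR1+ and -0.22 in NMUR1- cells, and Il13 had -0.65, -0.45 and 1.02. In NMUR1- cells they averaged 0.187 and 0.234 CPM, so their values there depend on the prior count. In ILC2 the libraries separated by treatment for Il5 (1330 to 1870 CPM with NMU, against 751 to 1310 CPM with PBS). They also did so for Areg (352 to 741 CPM with NMU, against 208 to 316 CPM with PBS). Il10 had 4.52 in ILC2 (SE 1.64), 0.07 in NMUR1+ and 0.00 in NMUR1- cells. In ILC2 it had 64.5, 10.6, 74.3 and 176 CPM with NMU, against 15.1, 4.75, 0 and 2.62 CPM with PBS. The groups overlapped, and with PBS mouse 7 at 0 the ILC2 value depends on the prior count. Over the 8 mice, the genes most like Ctla4 by the Pearson correlation of mouse averages were Degs1 (0.98), Kxd1 (0.97), Ube2q2 (0.95), Ube2e1 (0.95) and Lsp1 (0.95), given as a description.

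A difference found in each population concerned the composition of the transcripts. Genes were ordered by the GC content of their longest transcript (12400 genes with an annotated length, 91.8% of those tested) and cut into 5 groups of 2480. The median log2 difference was 0.03 in the lowest group, 0.01, -0.03 and -0.08 in the next 3 and -0.17 in the highest. From the lowest to the highest group it ran from -0.05 to -0.19 in ILC2, from 0.09 to -0.11 in NMUR1+ and from 0.07 to -0.21 in NMUR1- cells. The share of genes above 0 was 55.4% in the lowest group and 31.1% in the highest. By transcript length the median was 0.06 in the shortest and -0.10 in the longest group. This length gradient was present in ILC2 (0.08 and -0.21) and NMUR1- cells (0.08 and -0.07) and was 0.02 in both groups in NMUR1+ cells. Per mouse, the highest minus the lowest GC group, as a deviation from the mean of all libraries, was -0.15, -0.21, -0.11 and 0.09 log2 with NMU, against 0.14, 0.07, 0.04 and 0.21 with PBS, so that mouse 4 lay among the PBS mice.

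**Figure D5:**
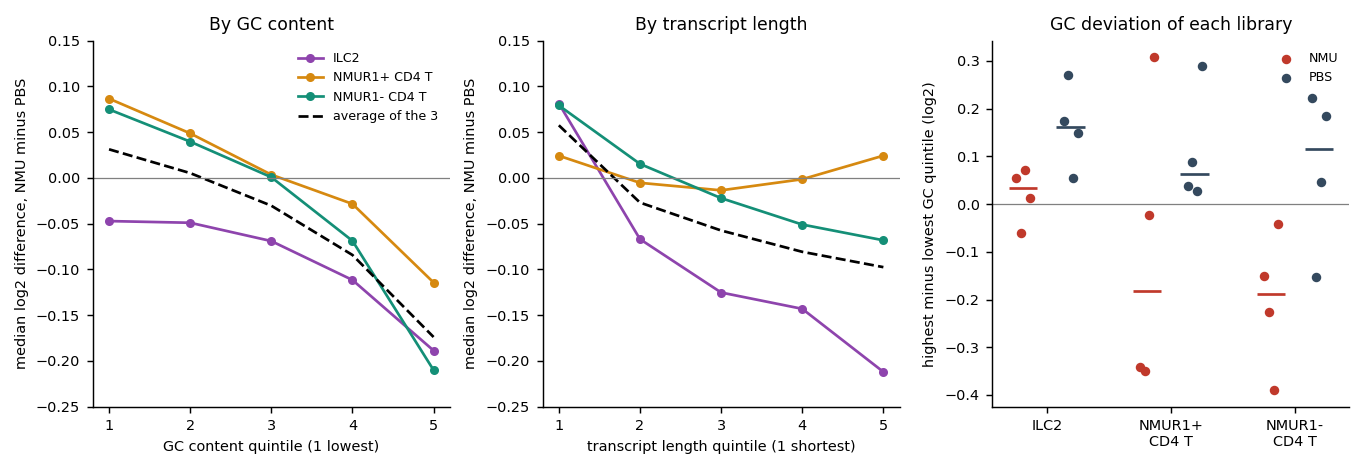
Median NMU minus PBS difference (log2 CPM) over 5 groups of 2480 genes ordered by GC content (left) and by length (middle) of the longest transcript, and the highest minus the lowest GC group in each library (right; NMU red, left of PBS, lines at medians). The GC curves descend in each population and the libraries of both treatments overlap in each population.

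The gene groups differed in these properties, whose part in the results was not tested beyond the values given here. The genes met by the rule of at least 0.5 in each population had a median GC content of 57.3%, against 49.6% for all genes. Oxidative phosphorylation transcripts had a median length of 1129 bases and ribosomal protein transcripts of 1049 bases, against 3352 bases for all genes, and the mitochondrially encoded ones a median GC content of 36.4%. After each library's trends in GC content and length were removed, an alternative chosen after the data were seen, the median of oxidative phosphorylation was 0.09 (60 of 77 above 0, against 51% of all genes). The mitochondrially encoded median was then 0.05 (5 of 8 above 0) and the ribosomal one 0.00 (41 of 81). Fibroblast markers had a median of -1.89 (18 of 19 below 0), proliferation genes of 0.44 and immediate early genes of -0.13 (20 of 28 below 0). Of the 20 genes of the rule that have a value, 8 had a difference of at least 0.5 in each population: Hes1 (-1.38, -0.66 and -1.32), Serping1, Rnf40, Socs3, Serpina3n, Arsa, Leng8 and Agpat1. With the trends removed 0 genes passed limma, and 1390 of 12400 (11.2%) had an unadjusted p under 0.05.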

How the data were processed

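RNA was counted in 24 libraries of sorted cells. Per the labels, the RNeasy Micro Kit gave the RNA. Amplified cDNA from a NEBNext kit for low input was sequenced, a chemistry without strand marks or molecular identifiers, so the limits given for counts of 0 cover counting error only, while SE and p-values carry the spread between mice. The submitters' processing notes name STAR 2.5.3 and mm10. Counting program, annotation and strand setting: not given in the sources used here, so reads of overlapping, antisense or near-identical genes cannot be separated. The authors deposited whole-number counts per gene, not normalized, for 27179 identifiers, of which 25275 were matched to symbols of the RefSeq table of GRCm38.p6. No column was left unused.

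Genes were kept by filterByExpr (minimum count 10), libraries were scaled by TMM, and log2 CPM (edgeR 4.0.16, prior count 2) were averaged per mouse over its 3 libraries. NMU and PBS mice were compared with limma 3.58.1 (eBayes with trend and robust) in R 4.3.3, with Benjamini-Hochberg adjustment over 13509 genes and a threshold of 0.05. A count model cannot weight libraries of unequal depth equally with the mouse as the only unit, so edgeR's quasi-likelihood test on libraries and on summed counts, DESeq2 1.42.0 and voom were alternatives. Effects were compared between populations with edgeR. No pair of replicate libraries agreed within sampling noise (lowest chi-square per degree of freedom 16.6). The 3 libraries of a mouse come from the same animal by their labels. The correlation of their deviations from group means averaged 0.03 to 0.23 per mouse, against -0.04 between mice. Deviations from a group mean sum to 0, which itself pushes the value between mice below 0, so it is no independent baseline. A consensus correlation of 0.05 entered the voom block fit. Each step was tested on simulated data.

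The averaged effect, its genes and the gene lists were chosen with earlier results of these data known, so no list is independent support. Genes were named by this rule: at least 1 CPM in each population, the same sign in each, and mouse averages that do not overlap, with 6 per direction by smallest p where none passed; per list the member with the smallest p (for 1 list it is not reported here); Nmur1, Areg, Il5, Il13 and Il10 always; and the 5 genes with the smallest p for the difference between populations. Transcript length and GC content came from GENCODE M21, and trends were fitted by lowess (span 0.5). Alternatives covered scaling, prior count, filters, models, each mouse, each population and the covariates Jchain and Col3a1.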

Additional observations from a re-analysis of the deposited data

Results flagged for a closer look

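The NMU effect of 9 genes named above differed between the 3 populations in the edgeR test of the 2 treatment-by-population terms. Adjusted p was 0.000104 for Snx9 and for Irf4, 0.000525 for Stx11, Pid1 and Pfkfb4, 0.000881 for Tnfrsf4, 0.00275 for Ctla4, 0.00348 for Cd52 and 0.0177 for C3. In each of the 9 the ILC2 difference was the largest.

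Single mice stood apart from the other 3 of their treatment in 5 of 82 groups of mouse averages (41 genes), where chance gives about 1 in 20. Each value is the gap to the nearest mouse as a share of the range on the log2 scale. Tnfrsf4 was at 926 CPM in NMU mouse 1 and 660 to 691 CPM in the others (0.867). Txn1, thioredoxin, was at 112 CPM in PBS mouse 8 and 104 to 105 CPM in the others (0.936). Xist was at 144 CPM in PBS mouse 8 and 193 to 205 CPM in the others (0.834). Il13 was at 24.2 CPM in PBS mouse 7 and 4.29 to 5.43 CPM in the others (0.864). Irf4 was at 103 CPM in PBS mouse 7 and 75.3 to 77.7 CPM in the others (0.898).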

How the results depend on the processing

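The count of 0 higher and 0 lower genes was unchanged with DESeq2 size factors, without a filter, with at least 1 CPM in each population, without immunoglobulin genes, with edgeR on summed counts, with Col3a1 as a covariate, without ILC2 and with GC and length trends removed. It was 83 higher and 111 lower with edgeR on 24 libraries (no replicate block), 64 and 174 with DESeq2 on summed counts, and 27 and 24 with the mouse as a replicate block in voom. Without NMUR1+ cells it was 10 and 6, without NMUR1- cells 6 and 5, with Jchain as a covariate 1 (Havcr2) and 0, and with library totals or a prior count of 0.5 it was 0 and 1 (Snx9). With 1 mouse left out it ran from 0 to 2 higher and 0 to 4 lower; the calls were made without mouse 4 (AW112010, Cd52, Unc45a, Postn, Serping1 and Snx9) and without mouse 7 (Ighv1-81), genes chosen after their values were seen. The 46 genes that differed between populations became 30 with the mouse as a replicate block, 344 by DESeq2's likelihood ratio test, and 17 to 62 with 1 mouse left out, 17 without mouse 1, 20 without mouse 5 and 30 without mouse 8. These causes were not tested.

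Of 980 values of named genes under 24 alternatives, 900 kept their side of the threshold and direction, 62 passed where the mouse averages did not, and 18 turned direction. Nmur1 turned to 0.084 with edgeR on 24 libraries, 0.11 with edgeR and with DESeq2 on summed counts, 0.0012 in voom, 0.040 with Jchain and 0.067 with Col3a1, and ran from -0.30 to 0.11 with 1 mouse left out. Il13 turned to 0.30 with a prior count of 0.5, 0.25 with edgeR on 24 libraries, 0.52 in voom, 0.29 without ILC2, 0.19 without NMUR1+ cells and 0.043 with Jchain, and ran from -0.42 to 0.57 with 1 mouse left out. Irf4 was at -0.061 without ILC2. Scaling by library totals moved the share of genes above 0 from 45.2% to 39.1%. With 1 mouse left out, list medians turned sign for neutrophil markers (0.05 without mouse 8), sterol synthesis (0.01 without mouse 6), interferon response (-0.17 without mouse 5, also without mice 2 and 6), unfolded protein response (-0.09 without mouse 6, also without mice 1 and 3), hypoxia and glycolysis (-0.04 without mouse 3), p53 targets (0.01 without mouse 3), NRF2 (0.01 without mouse 4) and NF-kappaB targets (0.01 without mouse 8, also without mouse 3). The ribosomal median was 0.02 and the glucocorticoid median -0.01 without mouse 3, the erythroid median -0.43 without mouse 8, the epithelial median -0.27 without mouse 6, and the B cell and macrophage medians -0.40 and -0.33 without mouse 5. Where counts were few, as for Mfap5 and C3 in ILC2 of NMU mice and Zbtb16 in T cells, fitted values are limited by depth.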
